A study of Rattus norvegicus with 30 samples.

Results

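Fibroblasts starved of serum for 16 days were compared with cells of the same line starved for 8 days, with 3 libraries for each time. The cells were of the REF line of rat embryonic fibroblasts, labelled as carrying no transformation. They come from an RNA sequencing series of 30 libraries, whose other groups were unstarved cells and cells starved for 2, 3, 4, 6, 10, 12 or 14 days, with 3 biological replicates in each group. The title of the series concerns how deep quiescence is and the lysosome as its graded control, and the comparison asks what still changes in cells that had already been starved for 8 days. All 6 libraries share the line and the serum starvation, and they differ in days of starvation alone, as far as the labels say. Cells at day 16 had also been in culture for 8 days longer than cells at day 8, so time under starvation and time in culture cannot be told apart. The serum level during starvation, the medium, its changes and cell density are not given in the sources used here. All 17353 gene symbols of the deposited table belong to the comparison. Of these, 8940 had a mean of at least 1 FPKM over the 30 libraries and were tested, and 6093 were listed at 0 in all 6 libraries. FPKM stands for fragments scaled by transcript length and by the number of mapped fragments, and every test was made with limma on log2(FPKM + 1).

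Fibroblasts deprived of serum stop dividing and enter quiescence, a reversible arrest in which pocket proteins, together with E2F factors and the MuvB complex, repress genes of DNA replication and mitosis. E2F sites mark many replication genes, while mitotic genes often carry CCAAT boxes, bound by NF-Y, and the cell cycle homology region, bound by MuvB. Serum also carries cholesterol, fatty acids, growth factors and lysophospholipids. Cells that lack sterol process the membrane-bound SREBP factors and make their own cholesterol and fatty acids, while lysophospholipids and stretch act through actin, MRTF with SRF, and YAP. Lysosomes degrade proteins, lipids and glycans and return their parts to the cell, and many of their genes carry CLEAR elements that TFEB and its relatives bind.

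Promoters are shown here for 1 member of each of 3 groups whose members moved together (mitosis, DNA replication and cholesterol synthesis), with the letters that were searched. They are the 250 bases before the annotated start, 5′ to 3′ on the strand of the gene, credited to RefSeq with the GRCr8 build. Each gene was taken from the members of smallest p whose 250 bases held the motifs sought for its list. For DNA replication either E2F site was enough. The matches shown were thus fixed by the choice. The deposited table was made on rn6 and gives symbols only, so genes were matched by symbol, which gave a promoter for 7400 of the 8940 genes tested. For Prc1, a protein that bundles microtubules in late mitosis, they span chr1:143659231-143659480 (+ strand), with CCAAT boxes (read as ATTGG on the other strand) and the TTTGAA of the cell cycle homology region in capitals. For Mcm5, a subunit of the replicative helicase, they span chr19:13488563-13488812 (+ strand), with the E2F sites TTTCCCGC and TTTGGCGC (here read as its reverse complement) in capitals and CCAAT boxes left in lower case. For Hmgcs1, which makes the precursor of mevalonate, they span chr2:53382054-53382303 (+ strand), with CCAAT boxes in capitals.
Prc1: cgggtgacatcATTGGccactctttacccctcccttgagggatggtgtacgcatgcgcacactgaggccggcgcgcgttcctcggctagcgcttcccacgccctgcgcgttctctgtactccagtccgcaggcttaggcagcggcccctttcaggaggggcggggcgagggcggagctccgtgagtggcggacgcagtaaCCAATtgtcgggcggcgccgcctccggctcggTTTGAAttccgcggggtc
Mcm5: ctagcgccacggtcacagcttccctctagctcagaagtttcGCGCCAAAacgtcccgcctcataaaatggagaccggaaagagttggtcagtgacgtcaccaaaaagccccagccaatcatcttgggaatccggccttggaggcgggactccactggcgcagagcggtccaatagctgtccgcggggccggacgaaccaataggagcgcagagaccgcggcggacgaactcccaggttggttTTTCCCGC
Hmgcs1: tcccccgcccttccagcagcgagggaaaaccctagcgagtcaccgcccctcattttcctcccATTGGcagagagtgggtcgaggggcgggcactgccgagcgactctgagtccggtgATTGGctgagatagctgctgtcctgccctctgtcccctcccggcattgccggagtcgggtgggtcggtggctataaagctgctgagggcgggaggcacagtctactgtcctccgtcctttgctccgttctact
Each motif was searched on both strands over 250 bases before and 50 after the start. TTTGAA was found in 28 of 37 mitosis promoters (75.7%), against 18.3% of all 33469 promoters in the table and 11.4% of those of the genes tested. TTTCCCGC or TTTGGCGC was found in 15 of 42 promoters of the DNA replication list (35.7%), in 0 of 37 of the mitosis list, in 1.45% of all promoters and in 3.3% of those of the genes tested. CCAAT was found in 82.4% of the 17 cholesterol synthesis promoters, 81.1% of mitosis, 72.7% of sterol uptake and control, 61.9% of DNA replication, 57.1% of fatty acid synthesis, 56% of lysosomal hydrolase and 27.3% of ribosomal protein promoters, against 37.5% of all and 38.8% of those of the genes tested. The sterol element written as TCACNCCAC was found in 0 of the 17 cholesterol promoters and 1.12% of all promoters, and the CLEAR core TCACGTGA in 1 of 25 lysosomal hydrolase promoters (4%), 0.777% of all and 1.89% of those of the genes tested. These are matches of letters within a short window, and binding was not measured.

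The libraries were similar within each time. Pearson's r of log2 values between replicates lay between 0.987 and 0.9911, and FPKM sums between 611240 and 654320 at day 8 and between 652173 and 785072 at day 16. Day 16 replicate 2 stood apart in one respect: short RNA genes made up 3.58% of its FPKM, nearly all from Mir3120, against 0.175% to 0.319% in the other 5 libraries. Replicate 1 had the most genes above 0 in every group of the series. It had 10447 at day 8, against 10172 and 9875, and 10542 at day 16, against 10155 and 10157. Its FPKM sum was the lowest at day 8 and at day 16. Ribosomal protein genes took 17.8%, 19.6% and 19.6% of the FPKM sum in the 3 day 8 libraries and 25.0%, 27.3% and 27.5% in the 3 day 16 libraries. The sum over all other genes except Ftl1 and Mir3120 lay between 493134 and 517695 at day 8 and between 470302 and 526242 at day 16. The deposited values had a median log2 change of 0 over all genes tested. When each library was rescaled to one common sum, that median became -0.16, and where this turned a direction or ended many calls it is said beside the result.

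Between day 8 and day 16, 1412 genes rose and 1291 fell, which is 15.8% and 14.4% of the 8940 genes tested (30.2% in either direction). Counts of rises and falls in each gene list below are to be read beside these shares. With libraries rescaled to a common sum, 731 rose and 2458 fell, so the share of calls that were rises went from 52.2% to 22.9%. Changes of at least 2-fold on the log2(FPKM + 1) scale were seen in 157 genes that rose and 141 that fell (1.76% and 1.58%). The 3 libraries of one time lay wholly above those of the other for 4123 genes (46.1%).

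**Figure D1:**
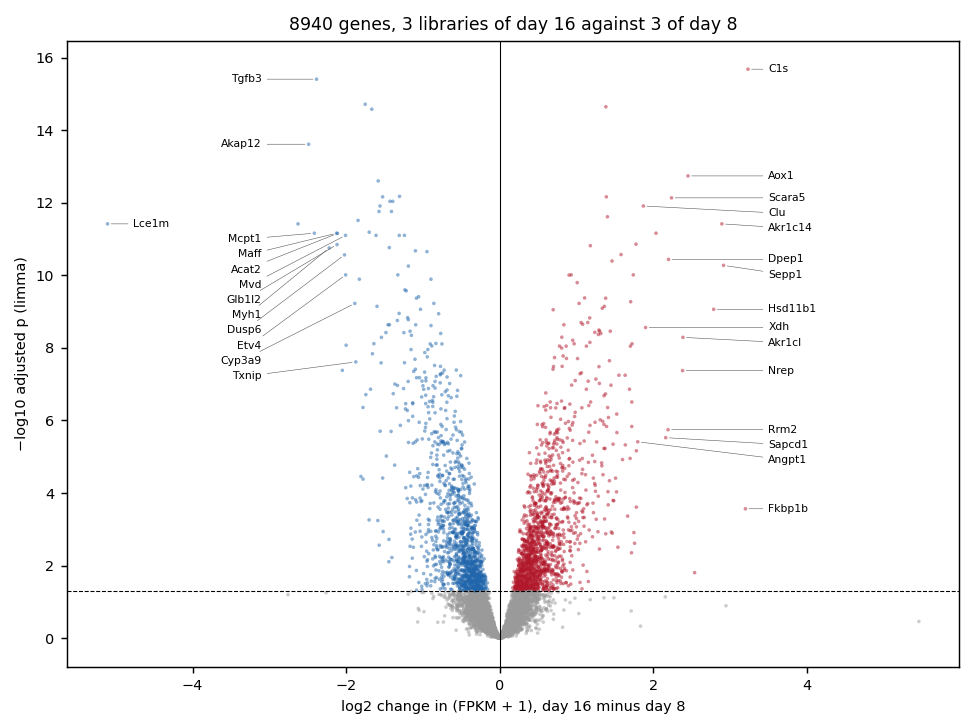
Each point is 1 of the 8940 genes tested, with the log2 change in FPKM + 1 from day 8 to day 16 on the x axis and the negative log10 of the adjusted p (limma) on the y axis. Red points rose and blue points fell at an adjusted p under 0.05 (dashed line), and the 15 largest rises and 13 of the 15 largest falls with no overlap between the groups and a mean of at least 5 FPKM are named, from C1s at 3.24 to Lce1m at -5.11.

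The genes described next are the 15 largest rises and 13 of the 15 largest falls among those that passed, had a mean of at least 5 FPKM and had no overlap between the groups. Among the rises were 1 protease of the classical complement pathway and genes of steroid, aldehyde and purine metabolism. C1s, the serine protease that cleaves C4 and C2, measured 8.62, 8.04 and 8.4 FPKM at day 8 and 82.5, 91.3 and 87.5 FPKM at day 16. The groups were far apart, and the log2 change was 3.24 ± 0.11 (SE; limma, adjusted p = 2.06e-16), which is 9.42-fold. Clu encodes clusterin, a secreted chaperone, and measured 117, 141 and 118 FPKM at day 8 and 501, 466 and 414 FPKM at day 16. It rose by 1.87 ± 0.11 on the log2 scale (limma, adjusted p = 1.22e-12), again with no overlap. Hsd11b1, which regenerates active glucocorticoid from its inert form, measured 1.94, 1.33 and 0.491 FPKM at day 8 and 11, 14.2 and 17.5 FPKM at day 16, a rise of 2.79 ± 0.23 on the log2 scale (limma, adjusted p = 8.61e-10). Sepp1, the selenium carrier selenoprotein P, went from 1.65, 1.58 and 2.21 to 19.2, 24.7 and 17.2 FPKM (log2 2.92 ± 0.21, limma adjusted p = 5.28e-11). Scara5, a receptor that takes up ferritin, went from 17.2, 17.7 and 15.5 to 79.3, 86.6 and 82.7 FPKM (log2 2.24 ± 0.12, limma adjusted p = 7.26e-13). The oxidases Aox1 and Xdh, which act on aldehydes and purines, rose by 2.45 and 1.90. The aldo-keto reductases Akr1c14 and Akr1cl rose by 2.89 and 2.39, but the family holds near-identical copies and how reads were shared among them is not given in the sources used here. Angpt1, a ligand of the endothelial receptor Tek, rose by 1.80, and the peptidase Dpep1 went from 1.71, 2 and 1.59 to 14.8, 11 and 9.78 FPKM. Nrep and Sapcd1 rose by 2.38 and 2.16, and Rrm2, described with the cell cycle genes, by 2.19. Fkbp1b, an immunophilin that binds calcium release channels, was listed at 2.98, 0 and 0 FPKM at day 8 and 7.63, 21.8 and 14.7 FPKM at day 16. Its log2 change of 3.20 ± 0.61 (SE; limma, adjusted p = 0.000272) rests on values near 0 at day 8 and a wide spread at day 16.

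The largest falls held growth factor, feedback and sterol genes. Lce1m, named for a protein of the cornified envelope of skin, measured 52, 45.8 and 49.9 FPKM at day 8 and 0.515, 0 and 1.03 FPKM at day 16. One day 16 library listed it at 0, and the log2 change was -5.11 ± 0.31 (SE; limma, adjusted p = 3.79e-12). Tgfb3, a TGF-beta ligand, measured 831, 911 and 912 FPKM at day 8 and 163, 171 and 171 FPKM at day 16. The 3 libraries of each time were close together, and the level at day 16 was 5.22-fold lower (log2 -2.39 ± 0.09, limma adjusted p = 3.88e-16). Akap12, a scaffold for protein kinase A, went from 159.7, 162 and 168 to 27.3, 27.3 and 30.3 FPKM (log2 -2.49 ± 0.12, limma adjusted p = 2.41e-14). Maff, a small Maf transcription factor, went from 38.5, 31 and 35.3 to 7.12, 6.46 and 8.12 FPKM (log2 -2.12 ± 0.13, limma adjusted p = 6.86e-12). Txnip, which binds thioredoxin and restrains glucose uptake, went from 32.4, 35.4 and 33 to 11.3, 8.59 and 6.09 FPKM (log2 -1.87 ± 0.19, limma adjusted p = 2.43e-08). The other falls described were Mcpt1 (-2.41), Myh1 (-2.22), Glb1l2 (-2.12), Cyp3a9 (-1.89), and the ERK and sterol genes Dusp6, Etv4, Acat2 and Mvd described below. In each of these genes the 3 day 16 values lay wholly above or wholly below the 3 day 8 values, which the rule that chose them required.

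**Figure D2:**
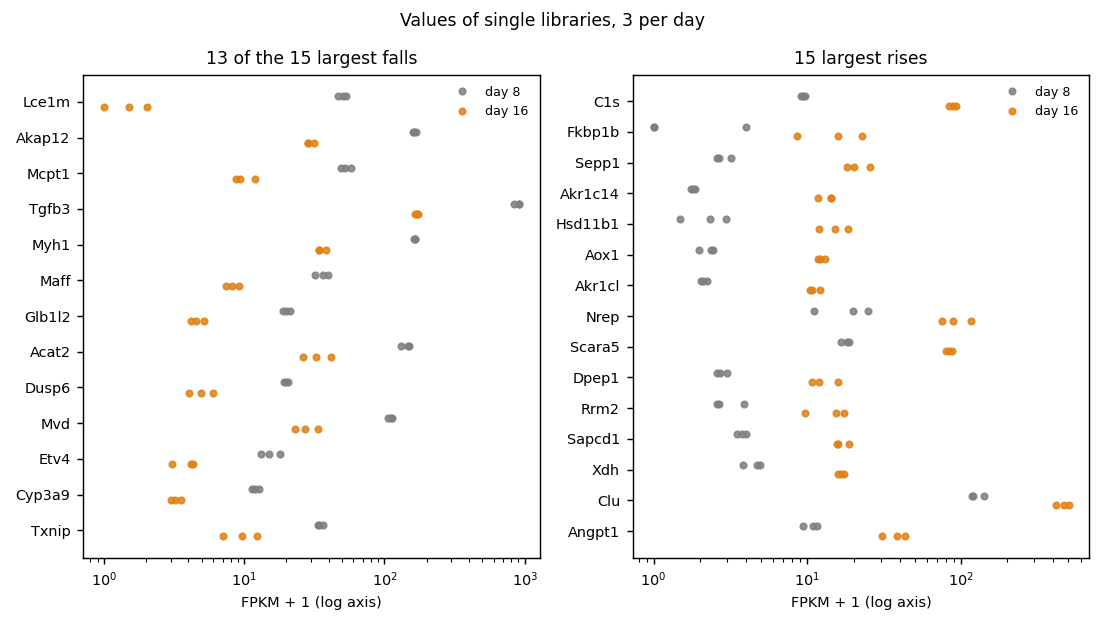
FPKM + 1 of single libraries (x axis, log scale) for 13 of the 15 largest falls (left) and the 15 largest rises (right), with day 8 in grey and day 16 in orange, 3 points each. Tgfb3 lies at the high end among the falls, with values from 831 to 912 FPKM at day 8, and Clu among the rises, with values from 414 to 501 FPKM at day 16.

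Cholesterol synthesis genes fell. Of 22 members tested, 20 fell and 0 rose, against 14.4% and 15.8% of all genes, and the median log2 change was -1.32, against 0 over all genes. Hmgcs1 measured 196, 175 and 187 FPKM at day 8 and 62.7, 66.5 and 76.9 FPKM at day 16. It fell by 1.43 ± 0.08 on the log2 scale (limma, adjusted p = 9.07e-13), with no overlap between the groups. Mvd, the last enzyme of the mevalonate part, measured 105, 113 and 111 FPKM at day 8 and 21.9, 32.3 and 26.2 FPKM at day 16. Acat2, the thiolase of the first step, measured 131, 148 and 145 FPKM at day 8 and 25.2, 31.4 and 40.7 FPKM at day 16. Neither had overlapping groups, and on the log2(FPKM + 1) scale Mvd was 4.02-fold lower (log2 -2.01 ± 0.13, limma adjusted p = 7.87e-12) and Acat2 4.33-fold lower (log2 -2.11 ± 0.13, limma adjusted p = 6.97e-12). Further down the pathway Fdps went from 446, 454 and 465 to 141, 163 and 171 FPKM, and Cyp51 from 329, 295 and 309.6 to 82.6, 95.2 and 97.7 FPKM (log2 -1.75 ± 0.07, limma adjusted p = 1.9e-15). Dhcr7, a reductase late in the pathway, fell by 1.58 on the log2 scale. The falls ran from -0.77 in Pmvk to -2.11 in Acat2. Ggps1, which makes a prenyl donor for proteins and not sterol, and Lbr, also a lamin B receptor, did not pass, at -0.15 and -0.07. In every alternative setting that was run, 20 members fell and 0 rose.

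Genes of sterol uptake and control moved less uniformly. Of 13 tested, 6 fell and 2 rose, against 14.4% and 15.8% of all genes, so the share of rises was near that of all genes. Insig1, which holds SREBP in the endoplasmic reticulum and is itself an SREBP target, measured 204, 182 and 178 FPKM at day 8 and 63, 74.9 and 74.9 FPKM at day 16 and fell by 1.39 ± 0.08 on the log2 scale (limma, adjusted p = 9.07e-13). The groups did not overlap. Srebf2 fell by 0.75 on the log2 scale and Srebf1 by 0.30, a call lost without day 8 replicate 1 or 2 or day 16 replicate 1 or 2. Mylip, a ubiquitin ligase induced by LXR, rose by 0.69, from 7.99, 6.83 and 7.89 to 12.4, 12.5 and 13.3 FPKM. Fatty acid synthesis fell as well: 13 of 16 members tested fell and 0 rose, with a median of -0.70. Fasn, the fatty acid synthase, measured 59.4, 66.9 and 66.5 FPKM at day 8 and 22, 24.6 and 25.4 FPKM at day 16 and fell by 1.39 ± 0.16 on the log2 scale (limma, adjusted p = 1.82e-07). Acss2 and Acly, which make cytosolic acetyl-CoA, fell by 1.19 and 1.17, and the desaturase Fads2 by 1.60. Elovl5, Acsl3 and Gpam did not pass, with negative changes of -0.40, -0.23 and -0.26, and Elovl5 and Acsl3 passed with a common sum (limma, adjusted p = 0.00566 and 0.00103) and with quantile normalization (0.0407 and 0.013).

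Contractile and adhesion genes fell together. Of 26 tested members of the list of actin cytoskeleton genes and targets of SRF, 21 fell and 1 rose, with a median of -0.70. Acta2, smooth muscle actin, measured 4615, 5647 and 5197 FPKM at day 8 and 2385, 2874 and 2893 FPKM at day 16. It fell by 0.92 ± 0.13 on the log2 scale (limma, adjusted p = 3.29e-06), and no library of one time reached those of the other. Vcl, the adhesion protein vinculin, measured 363, 357 and 376 FPKM at day 8 and 169, 167 and 175 FPKM at day 16 and fell by 1.09 ± 0.10 on the log2 scale (limma, adjusted p = 2.3e-09). Cnn1, a calponin of smooth muscle, measured 173, 164 and 158 FPKM at day 8 and 71.3, 82.9 and 83 FPKM at day 16 and fell by 1.06 ± 0.08 on the log2 scale (limma, adjusted p = 3.87e-10). Tpm1 and Fhl1 fell by 0.79 and 0.90, Srf itself by 0.51 and Actb by 0.39, the last a call lost without day 8 replicate 2 or day 16 replicate 1. The member that rose was Vim, the intermediate filament vimentin, at 0.23, a call lost without any one of the day 8 replicates, without day 16 replicate 1 or 2 and with a common sum. Of 16 tested YAP targets and partners, 9 fell and 0 rose. Cyr61, a matricellular protein, measured 347, 363 and 378 FPKM at day 8 and 117, 129 and 122 FPKM at day 16 and fell by 1.56 ± 0.09 on the log2 scale (limma, adjusted p = 1.22e-12). Ctgf, its relative, measured 4827, 4499 and 4666 FPKM at day 8 and 3208, 3321 and 3182 FPKM at day 16 and fell by 0.53 ± 0.08 on the log2 scale (limma, adjusted p = 8.29e-06). Crim1 and Ajuba fell by 1.22 and 0.54, and Yap1 itself did not pass at -0.31, but passed with a common sum at -0.48 (limma, adjusted p = 0.0063).

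The list of immediate early genes and ERK feedback had 12 of 27 tested members lower and 4 higher, against 14.4% and 15.8% of all genes. The share of rises was thus near that of all genes. Dusp6, the phosphatase that switches off ERK and is induced by it, measured 18.8, 19.6 and 18.2 FPKM at day 8 and 3, 3.89 and 5 FPKM at day 16 and fell by 2.02 ± 0.14 on the log2 scale (limma, adjusted p = 2.72e-11). Etv4, an ETS factor of the same feedback, measured 12.2, 14 and 16.9 FPKM at day 8 and 3.33, 3.19 and 2.03 FPKM at day 16 and fell by 2.01 ± 0.15 on the log2 scale (limma, adjusted p = 9.66e-11). Spry2, an inhibitor of receptor signalling, went from 33.9, 35.6 and 34.6 to 16.7, 16.9 and 15.9 FPKM (log2 -1.03 ± 0.08, limma adjusted p = 8.61e-10), and Fosl1, an AP-1 subunit, from 11.7, 13.2 and 10.5 to 2.58, 3.2 and 4.6 FPKM (log2 -1.54 ± 0.14, limma adjusted p = 5.11e-09). The 4 members that rose were Ier5, Jund, Klf10 and Fosl2, by 0.22 to 0.57, and this count was 2 without day 8 replicate 1 or without day 16 replicate 2, and 0 with a common sum. Myc did not pass, at -0.40 with overlapping groups, but it passed without day 8 replicate 3, at -0.64 (limma, adjusted p = 0.0034), and with a common sum, at -0.57 (adjusted p = 0.0208).

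**Figure D3:**
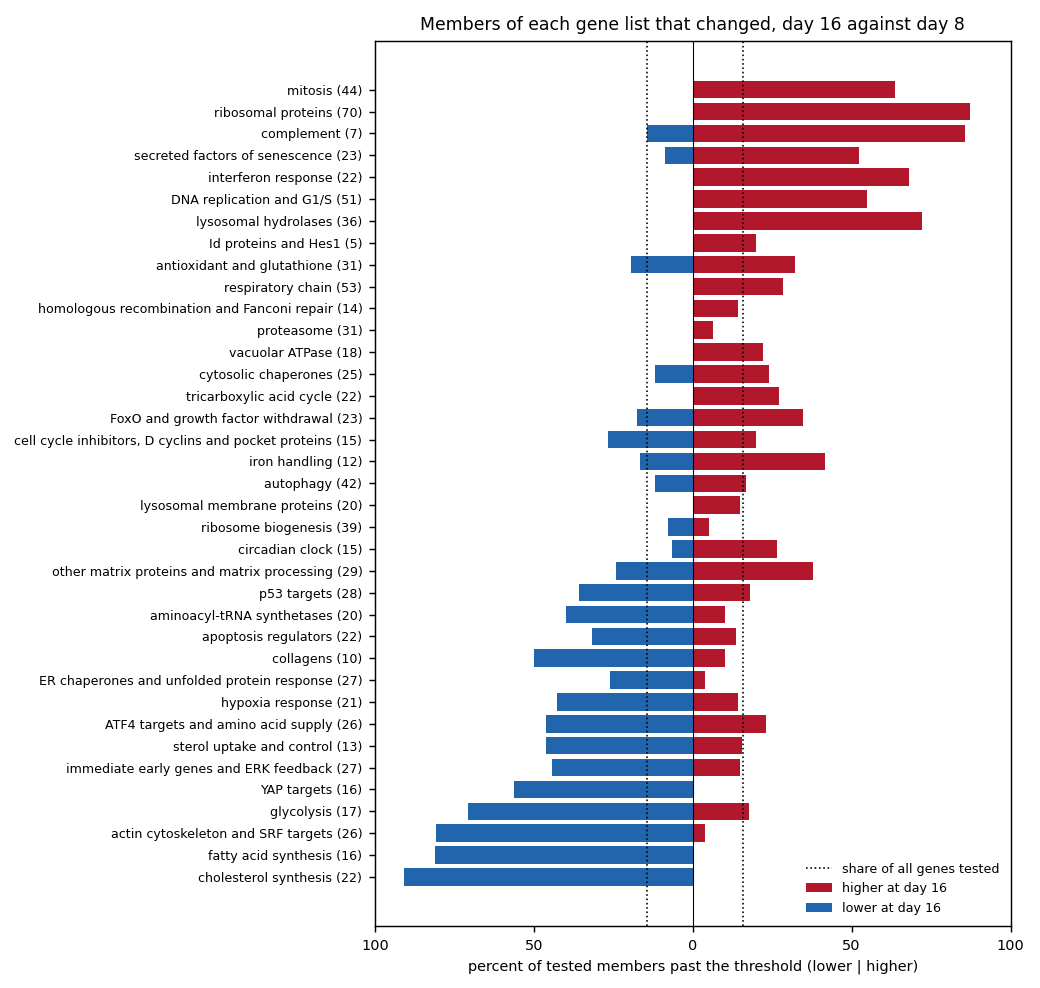
Bars give the percent of tested members of each gene list that rose (red, right) or fell (blue, left) from day 8 to day 16, with the number tested in parentheses and lists ordered by their median change. Dotted lines mark the shares of all genes tested, 15.8% higher and 14.4% lower. The bars of cholesterol synthesis lie wholly to the left and those of mitosis and ribosomal proteins wholly to the right.

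Most glycolysis genes fell. Of 17 members tested, 12 fell and 3 rose, with a median of -0.605. Pgk1, which makes the first ATP of the pathway, measured 1080, 1083 and 1012 FPKM at day 8 and 530.5, 609 and 650.3 FPKM at day 16. It fell by 0.83 ± 0.08 on the log2 scale (limma, adjusted p = 7.51e-09) with no overlap. Pfkl, a phosphofructokinase, measured 64.2, 74.8 and 73.5 FPKM at day 8 and 31.7, 40 and 32.6 FPKM at day 16 and fell by 1.01 ± 0.11 on the log2 scale (limma, adjusted p = 8.2e-08). Gapdh measured 2749, 2765 and 2640 FPKM at day 8 and 1631, 1776 and 1724 FPKM at day 16 and fell by 0.67 ± 0.08 on the log2 scale (limma, adjusted p = 2.08e-07). Gpi fell by 0.63. The 3 that rose were the muscle-type phosphofructokinase Pfkm (0.53), the regulator Pfkfb3 (0.66) and the monocarboxylate carrier Slc16a1 (1.08). Of 21 tested genes of the hypoxia response, 9 fell and 3 rose, with a median of -0.22. All genes fell in 14.4% and rose in 15.8% of cases, so the share of rises was near that of all genes. Higd1a, a mitochondrial protein induced by hypoxia, measured 80.9, 89 and 71.9 FPKM at day 8 and 33.5, 31.4 and 44.7 FPKM at day 16 and fell by 1.13 ± 0.13 on the log2 scale (limma, adjusted p = 3.43e-07). P4ha1, a collagen prolyl hydroxylase, fell by 0.54, the demethylase Kdm3a by 0.62 and Ankrd37 by 1.14. Vegfa did not pass, at -0.10. With a common sum 0 genes of the hypoxia response rose and 12 fell.

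Cytosolic ribosomal proteins rose almost as a block. Of 70 tested, 61 rose and 0 fell, and the median was 0.67. Rpl3 measured 508, 552 and 522 FPKM at day 8 and 979, 1088 and 998 FPKM at day 16 and rose by 0.95 ± 0.09 on the log2 scale (limma, adjusted p = 6.16e-09). Rpl4 measured 809, 734 and 758 FPKM at day 8 and 1339, 1428 and 1315 FPKM at day 16 and rose by 0.83 ± 0.08 on the log2 scale (limma, adjusted p = 1.66e-08). Rpl5, which with Rpl11 can bind Mdm2, went from 515, 535 and 529 to 807, 914 and 796 FPKM (log2 0.67 ± 0.08, limma adjusted p = 8.19e-07). In none of these 3 genes did the groups overlap. The 9 that did not pass had changes between 0.35 in Rpl38 and 0.86 in Rpl37a. Over the alternative settings that were run the count of rises lay between 41 and 67, with 53 and a median of 0.50 when libraries were rescaled to a common sum, and 41 and a median of 0.35 with quantile normalization. Ribosomal protein genes have many processed copies in the genome, and the authors' treatment of shared reads is not given in the sources used here. Rps6 was listed at 0 in all 6 libraries, although every cell uses it, so a value of 0 in this table can be a failed estimate. Factors that assemble ribosomes had few calls: of 39 tested, 2 rose (Npm1 at 0.26 and Nob1 at 0.29) and 3 fell (Ddx21 at -0.47, Utp20 at -0.53 and Ltv1 at -0.27), with a median of -0.02. The rises numbered 1 without day 8 replicate 1, day 16 replicate 2 or day 16 replicate 3, and with a common sum 0 rose and 12 fell.

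Nuclear-encoded genes of the respiratory chain rose in 15 of 53 cases and fell in 0, with a median of 0.21. Ndufa10, of complex I, measured 58.1, 57.6 and 55.6 FPKM at day 8 and 77.3, 72.5 and 76.2 FPKM at day 16 and rose by 0.39 ± 0.07 on the log2 scale (limma, adjusted p = 6.88e-05). Ndufs7 measured 175, 212 and 181 FPKM at day 8 and 287, 329 and 282 FPKM at day 16 and rose by 0.66 ± 0.15 on the log2 scale (limma, adjusted p = 0.00139). Sdhc, of complex II, rose by 0.44. These calls depend on the scaling: with a common sum 3 rose and 1 fell, with a median of 0.04, and the call of Ndufa10 was lost. They also depend on single libraries, since 8 rose without day 16 replicate 2 and 9 without day 8 replicate 3. In the other direction, 23 rose with upper quartile scaling, and also 23 with replicate 1 of every group left out. Of 22 tested genes of the tricarboxylic acid cycle, 6 rose and 0 fell, or 3 and 0 without day 8 replicate 1. With a common sum 4 rose, 3 fell and the median turned from 0.08 to -0.09. Pc, pyruvate carboxylase, measured 9.79, 12 and 9.56 FPKM at day 8 and 20.8, 23.7 and 20.2 FPKM at day 16 and rose by 0.98 ± 0.12 on the log2 scale (limma, adjusted p = 5.96e-07). In the proteasome, 2 of 31 members rose (Psma6 at 0.25 and Psmb7 at 0.40), 0 fell, and the median turned from 0.16 to -0.01 with a common sum. The proteasome count was 0 without day 8 replicate 3 or day 16 replicate 2 (median 0.09 without the latter), 1 without day 8 replicate 1 or day 16 replicate 3, and 4 without day 16 replicate 1. It was higher in other settings, at 8 with upper quartile scaling and 10 with replicate 1 of every group left out.

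Of 12 tested genes of iron handling, 5 rose and 2 fell, with a median of 0.06. Ftl1, the light chain of ferritin, measured 8833, 8654 and 8495 FPKM at day 8 and 17890, 17280 and 15990 FPKM at day 16. It rose by 0.98 ± 0.12 on the log2 scale (limma, adjusted p = 7.77e-07), with no overlap between the groups. Quantile normalization, which gives the top genes of all libraries like values, ended this call. Fth1, the heavy chain, measured 985, 1078 and 994 FPKM at day 8 and 2107, 2424 and 2066 FPKM at day 16 and rose by 1.11 ± 0.09 on the log2 scale (limma, adjusted p = 4.18e-10). Hmox1, which frees iron from heme, measured 65.3, 69.5 and 66.1 FPKM at day 8 and 151, 173 and 136 FPKM at day 16 and rose by 1.18 ± 0.11 on the log2 scale (limma, adjusted p = 7.03e-09). Slc40a1, the iron exporter ferroportin, went from 0.79, 0.504 and 0.603 to 4.25, 4.19 and 4.51 FPKM (log2 1.71 ± 0.14, limma adjusted p = 5.31e-10). The falls were the transferrin receptor Tfrc (-0.64) and the iron-responsive Aco1 (-0.32), and 1 of them was lost without day 8 replicate 2 or without any one of the day 16 replicates. Ferritin genes, too, have processed copies. Among 31 antioxidant and glutathione genes, 10 rose and 6 fell. Gpx1, a glutathione peroxidase, measured 76.5, 79.3 and 80.5 FPKM at day 8 and 116, 136 and 138 FPKM at day 16 and rose by 0.71 ± 0.12 on the log2 scale (limma, adjusted p = 4.65e-05). Nfe2l2, the factor NRF2, fell by 0.44 and its target Txnrd1 by 0.52, while Gsta4 rose by 1.45 and Mgst3 by 1.38. With a common sum 6 antioxidant genes rose and 8 fell, and in iron handling 5 rose, 4 fell and the median turned from 0.06 to -0.10.

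Cell cycle genes rose from low levels. Members such as Mki67 and Ccna2 passed the filter, a mean over 30 libraries, through groups other than days 8 and 16, so their means in unstarved cells are given as levels only. Of 51 tested genes of DNA replication and the G1/S transition, 28 rose and 0 fell, with a median of 0.44. Rrm2, the regulated subunit of ribonucleotide reductase, measured 1.65, 1.6 and 2.86 FPKM at day 8 and 16.2, 14.3 and 8.68 FPKM at day 16. It rose by 2.19 ± 0.29 on the log2 scale (limma, adjusted p = 1.8e-06), while its mean was 552 FPKM in unstarved cells and 15.5 FPKM at day 2. Mcm5 measured 0.171, 0.311 and 0.159 FPKM at day 8 and 2.88, 3.48 and 2.67 FPKM at day 16 and rose by 1.72 ± 0.20 on the log2 scale (limma, adjusted p = 3.09e-07), and its mean in unstarved cells was 75.2 FPKM. Tk1, thymidine kinase, measured 5.2, 5.58 and 5.43 FPKM at day 8 and 13.9, 11.7 and 11.8 FPKM at day 16 and rose by 1.07 ± 0.13 on the log2 scale (limma, adjusted p = 4.46e-07). E2f1 measured 6.67, 5.42 and 6.52 FPKM at day 8 and 13.7, 11.8 and 11.9 FPKM at day 16 and rose by 0.90 ± 0.14 on the log2 scale (limma, adjusted p = 1.77e-05), against a mean of 38.8 FPKM in unstarved cells and 5.74 FPKM at day 2. Cdt1, which licenses origins, went from 0.0525, 0.0973 and 0 to 2.03, 1.59 and 1.25 FPKM, with 1 library listed at 0 at day 8. Pcna, the polymerase clamp, went from 67.4, 66.4 and 64.9 to 90.8, 81.5 and 74.8 FPKM (log2 0.31 ± 0.09, limma adjusted p = 0.00816), a call lost without day 16 replicate 1 and with a common sum. In that scaling 18 of the 51 rose and 1 fell.

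Mitotic genes rose as well. Of 44 tested, 28 rose and 0 fell, with a median of 0.70. Prc1 measured 0.802, 1.15 and 0.583 FPKM at day 8 and 5.4, 3.74 and 2.8 FPKM at day 16 and rose by 1.41 ± 0.25 on the log2 scale (limma, adjusted p = 9.19e-05). Mki67, the proliferation antigen, measured 0.117, 0.165 and 0.0992 FPKM at day 8 and 1.41, 0.721 and 0.699 FPKM at day 16 and rose by 0.77 ± 0.21 on the log2 scale (limma, adjusted p = 0.00793), against a mean of 52.3 FPKM in unstarved cells, and the call was lost without day 16 replicate 1. Ccna2, cyclin A2, measured 0.323, 0.553 and 0 FPKM at day 8 and 2.05, 1.66 and 0.789 FPKM at day 16 and rose by 0.94 ± 0.25 on the log2 scale (limma, adjusted p = 0.00536), against 127 FPKM in unstarved cells. Nuf2 and Ndc80, which link kinetochores to microtubules, rose by 1.33 and 1.28, and Ckap2 by 1.04. Replicate 1 was the highest of the 3 day 16 libraries for Prc1, Mki67, Ccna2, Nuf2 and Ckap2, and replicate 2 for Ndc80. With replicate 1 of every group left out, 14 of the 44 rose and 0 fell, while with a common sum 27 rose. In bulk RNA, more cells that express these genes and more RNA in each such cell cannot be told apart. At levels this close to the pseudocount of 1 the fold is understated: the median was 0.96 with a pseudocount of 0.5 and 1.48 with 0.1, where 31 and 32 rose. Of 14 tested genes of homologous recombination and Fanconi repair, 2 rose and 0 fell, a share of rises near the 15.8% of all genes. Fancd2 (log2 0.62 ± 0.19, limma adjusted p = 0.0133) was among the 2, and 1 rose without day 16 replicate 1.

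Inhibitors of the cycle moved in both directions. Of 15 tested inhibitors, D cyclins and pocket proteins, 3 rose and 4 fell, against 15.8% and 14.4% of all genes. Cdkn1b, the inhibitor p27, measured 53.7, 60 and 55.4 FPKM at day 8 and 67.5, 71.5 and 83.2 FPKM at day 16 and rose by 0.38 ± 0.10 on the log2 scale (limma, adjusted p = 0.00669). Cdkn2a measured 15.4, 17.4 and 15.5 FPKM at day 8 and 26, 25.9 and 21.6 FPKM at day 16 and rose by 0.58 ± 0.21 on the log2 scale (limma, adjusted p = 0.0442), and its mean in unstarved cells was 65.3 FPKM. Cdkn1a, the inhibitor p21, measured 224, 207 and 203 FPKM at day 8 and 168, 152 and 169 FPKM at day 16 and fell by 0.37 ± 0.13 on the log2 scale (limma, adjusted p = 0.0322). Cdkn2b fell by 0.54, Rb1 by 0.47 and Cdk6 by 0.95, while Ccnd3 rose by 0.26. Ccnd1 did not pass, with 271, 291 and 305 FPKM at day 8 and 291, 330.4 and 341 FPKM at day 16. With a common sum the calls of all 3 that rose were lost, Ccnd3 at 0.09 (limma, adjusted p = 0.511). Those of Cdkn2a and Cdkn1a were lost when any one library other than day 16 replicate 3 was left out. The call of Cdkn1b was lost without day 16 replicate 3, and that of Cdk6 was lost without day 8 replicate 1 or 2 or day 16 replicate 1. The falls numbered 2 without day 8 replicate 1 or 2 or day 16 replicate 1, and the median of the list turned from 0.08 to -0.09 with a common sum. Of 28 tested p53 targets, 10 fell and 5 rose, the share of rises being near the 15.8% of all genes. Mdm2, the ligase that degrades p53, measured 64.4, 70.5 and 69.1 FPKM at day 8 and 41.8, 52.2 and 49.7 FPKM at day 16 and fell by 0.50 ± 0.08 on the log2 scale (limma, adjusted p = 1.92e-05). Ccng1 fell by 0.71 and the nuclease Aen by 0.76, while Gadd45a rose by 0.58. After rescaling to a common sum 1 p53 target rose and 13 fell. Among 22 apoptosis regulators, 7 fell and 3 rose, against 14.4% and 15.8% of all genes, so the share of rises was near that of all genes. The falls took in the survival genes Cflar (-1.08), Bcl2l1 (-0.65) and Bcl2l2 (-0.42) and the death genes Pmaip1 (-0.89), Bbc3 (-0.80), Apaf1 (-0.56) and Bax (-0.46), that of Pmaip1 being lost without day 8 replicate 3 or day 16 replicate 1. The rises were the death genes Bcl2l11 (0.77), Bmf (0.47) and Bid (0.44), and they numbered 1 without day 8 replicate 1 or 3 and 0 without day 16 replicate 3 or with a common sum.

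Of 36 tested lysosomal hydrolases and their activators, 26 rose and 0 fell, with a median of 0.36. Ctsh, an aminopeptidase, measured 81.5, 88.7 and 83.9 FPKM at day 8 and 216, 233 and 222 FPKM at day 16 and rose by 1.39 ± 0.08 on the log2 scale (limma, adjusted p = 6.82e-13). Ctsd, the main aspartic protease, measured 687, 719.6 and 669 FPKM at day 8 and 890.3, 919.9 and 905 FPKM at day 16 and rose by 0.39 ± 0.06 on the log2 scale (limma, adjusted p = 7.72e-06). Ctsb measured 682, 745 and 713 FPKM at day 8 and 1177, 1301 and 1198 FPKM at day 16 and rose by 0.78 ± 0.07 on the log2 scale (limma, adjusted p = 8.88e-09). Man2b1, which trims mannose, and Gm2a, which presents a ganglioside to its enzyme, rose by 0.90 and 1.06. Glb1, the galactosidase read out as senescence-associated activity, did not pass, with 54.6, 56.2 and 50.8 FPKM at day 8 and 56, 54.2 and 54.2 FPKM at day 16 and overlapping groups. With libraries rescaled to a common sum, 12 hydrolases rose, 0 fell and the median was 0.19. Of 20 tested membrane and transport proteins, 3 rose and 0 fell, with a median of -0.003, a share of rises near the 15.8% of all genes. The lists were not tested against each other. Lamp1 measured 829, 747 and 736 FPKM at day 8 and 880, 797 and 822 FPKM at day 16 and did not pass (log2 0.11 ± 0.08, limma adjusted p = 0.329). Lamp2 measured 288, 274 and 298 FPKM at day 8 and 255, 304 and 303 FPKM at day 16 and did not pass (limma, adjusted p = 0.997). Mcoln1, the calcium channel of the lysosome, rose by 0.57, the cholesterol binder Npc2 by 0.29 and Laptm4a by 0.34, the last a call lost without day 8 replicate 1 or 3 or day 16 replicate 2 or 3. With a common sum 1 rose and 3 fell.

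Some genes of the lysosomal proton pump rose. Of 18 tested genes of the vacuolar ATPase, 4 rose and 0 fell, against 15.8% and 14.4% of all genes. The 4 that rose were Atp6ap1 (0.37), Tcirg1 (0.46), Atp6v0d1 (0.24) and Atp6v0e1 (0.29). Without day 16 replicate 2 this count was 2, and with a common sum 0 rose, 2 fell and the median turned from 0.14 to -0.03. In the autophagy list, 7 of 42 members rose and 5 fell, shares near the 15.8% and 14.4% of all genes. With a common sum 2 rose, 11 fell and the median turned from 0.05 to -0.12. Sqstm1, the cargo receptor p62, measured 395, 407 and 401 FPKM at day 8 and 512, 566 and 515 FPKM at day 16 and rose by 0.40 ± 0.06 on the log2 scale (limma, adjusted p = 1.52e-05). Gabarapl1 and Gabarapl2, which coat autophagosomes, rose by 0.60 and 0.41, while Bnip3, a receptor for mitochondria that hypoxia induces, fell by 0.43. Without day 16 replicate 2 the rises numbered 3, as they did in a fit of the compared groups alone, and without day 16 replicate 3 they numbered 4, while the call of Gabarapl2 was lost with a common sum. Tfeb did not pass, at 0.22.

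Complement, interferon response and secreted factors rose in part. All 7 tested complement genes passed, 6 higher and 1 lower. C1r, the protease that activates C1s, measured 202, 206 and 206 FPKM at day 8 and 543, 512 and 553 FPKM at day 16 and rose by 1.38 ± 0.06 on the log2 scale (limma, adjusted p = 2.24e-15). C1qbp, which despite its name is mainly mitochondrial, rose by 0.45, and the regulators Cd59 and Cd55 moved apart, at 0.63 and -0.77. C3, Cfd and Serping1 were listed at 0 in all 6 libraries. Of 35 interferon response genes in the table, 22 were tested, and 4 were listed at 0 in all 6 libraries, Mx1 and Oas1a among them. Of those tested, 15 rose and 0 fell, with a median of 0.45, and with a common sum 8 rose and 2 fell. Ifit1, Ifit2, Ifit3, Mx2, Oasl and Rsad2 were not tested, and none was above 0.45 FPKM at either time. Bst2, also not tested, was at most 0.331 FPKM at day 8 and 0.95 to 2.56 FPKM at day 16. B2m, the small chain of class I molecules, measured 233, 233 and 215 FPKM at day 8 and 311, 305 and 315 FPKM at day 16 and rose by 0.45 ± 0.08 on the log2 scale (limma, adjusted p = 9.19e-05). Lgals3bp rose by 0.49, and Gbp2 went from 0.417, 0.203 and 0.358 to 1.45, 1.85 and 1.41 FPKM.

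Of 46 secreted factors linked with senescence, 23 were tested, and 16 were listed at 0 in all 6 libraries, Il1a and Il1b among them. Of those tested, 12 rose and 2 fell, with a median of 0.48. Cxcl12, a chemokine of stromal cells, measured 35.8, 36.8 and 37.9 FPKM at day 8 and 97.5, 100.5 and 99.1 FPKM at day 16 and rose by 1.40 ± 0.08 on the log2 scale (limma, adjusted p = 2.42e-12). Plat, the tissue plasminogen activator, measured 5.19, 5.61 and 4.09 FPKM at day 8 and 19.1, 20.5 and 18.4 FPKM at day 16 and rose by 1.78 ± 0.12 on the log2 scale (limma, adjusted p = 1.38e-11). Csf1, the growth factor of macrophages, measured 28.6, 32.4 and 30.3 FPKM at day 8 and 56.9, 60.9 and 58.8 FPKM at day 16 and rose by 0.93 ± 0.07 on the log2 scale (limma, adjusted p = 9.66e-11). One of the 2 that fell was Lif (-1.52). Il6 did not pass, at -0.35, but passed with a common sum at -0.52 (limma, adjusted p = 0.0194). Rescaled to a common sum, 9 rose and 4 fell.

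Matrix genes changed in both directions. Of 10 tested collagens, 5 fell and 1 rose. Col3a1 measured 970, 1008 and 993 FPKM at day 8 and 1472, 1417 and 1347 FPKM at day 16 and rose by 0.51 ± 0.07 on the log2 scale (limma, adjusted p = 8.51e-06), a call that quantile normalization ended at 0.16 (adjusted p = 0.212). Col5a2 measured 556, 533 and 579.8 FPKM at day 8 and 364, 353 and 345 FPKM at day 16 and fell by 0.65 ± 0.07 on the log2 scale (limma, adjusted p = 9.54e-08), and Col8a1 and Col4a1 fell by 0.90 and 0.39. Col1a1 did not pass, with 1114, 1260 and 1150 FPKM at day 8 and 1325, 1220 and 1060 FPKM at day 16 and overlapping groups. Of 29 other matrix genes, 11 rose and 7 fell. Postn, periostin, measured 254, 227 and 223 FPKM at day 8 and 564, 614 and 637 FPKM at day 16 and rose by 1.36 ± 0.11 on the log2 scale (limma, adjusted p = 7.13e-10). Ecm1 and Fmod rose by 1.24 and 1.69, while Nid2, of the basement membrane, fell by 0.98 and Fn1, fibronectin, by 1.07. Of these 29, 6 rose and 10 fell with a common sum.

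Amino acid supply, tRNA synthetase and endoplasmic reticulum chaperone lists each held more falls than rises. Of 26 tested ATF4 targets and genes of amino acid supply, 12 fell and 6 rose. Atf4 itself measured 522, 526 and 527 FPKM at day 8 and 358, 356 and 358 FPKM at day 16 and fell by 0.55 ± 0.08 on the log2 scale (limma, adjusted p = 3.54e-06). Slc7a1, a carrier of cationic amino acids, measured 8.52, 8.44 and 8.59 FPKM at day 8 and 2.46, 3.63 and 3.55 FPKM at day 16 and fell by 1.19 ± 0.16 on the log2 scale (limma, adjusted p = 4.04e-06). Slc38a2 and Mthfd2 fell by 0.69 and 0.74, while Cebpb rose by 0.77. The rises numbered 2 without day 8 replicate 1 or with a common sum, and 3 without day 16 replicate 2 or in a fit of the compared groups alone. Of 20 aminoacyl-tRNA synthetases, 8 fell and 2 rose: Lars, Iars and Aars fell by 0.41, 0.50 and 0.32, and Qars and Kars rose by 0.40 and 0.20. One of those 2 rises was lost without any one of the day 8 replicates or without day 16 replicate 2, and both with a common sum, where 14 fell. Of 27 chaperones and sensors of the endoplasmic reticulum, 7 fell and 1 rose, and 4 fell without day 16 replicate 1. P4hb fell by 0.28, Sdf2l1 by 0.62 and Xbp1 by 0.36, and Calr rose by 0.26. Under a common sum 0 of these rose and 14 fell. Of 25 cytosolic chaperones, 6 rose and 3 fell, against 15.8% and 14.4% of all genes, with Hspb8 at 0.61. The rises numbered 3 without day 16 replicate 2, the falls 1 without day 8 replicate 2 or day 16 replicate 3, and with a common sum 3 rose, 10 fell and the median turned from 0.08 to -0.09.

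Genes induced by loss of growth factor signals and clock genes held both rises and falls. Of 23 in the list of FoxO targets and growth factor withdrawal, 8 rose and 4 fell, against 15.8% and 14.4% of all genes. Only 2 of them fell without day 8 replicate 3 or without day 16 replicate 1. Pik3ip1, which restrains PI3K, measured 3.68, 2.57 and 2.73 FPKM at day 8 and 8.91, 10.5 and 10.2 FPKM at day 16 and rose by 1.45 ± 0.16 on the log2 scale (limma, adjusted p = 1.06e-07). Bcl6 and Gas6 rose by 0.86 and 0.45, while Txnip, described with the largest falls, was among the 4 that fell. Of 15 clock genes, 4 rose, namely Arntl (0.48), Dbp (0.57), Tef (0.35) and Nr1d1 (0.40), and Bhlhe40 fell (-0.34), a call lost without day 8 replicate 1 or day 16 replicate 1. With a common sum 2 clock genes rose and 3 fell, and the median of the FoxO list turned from 0.08 to -0.08. Among Id proteins and Hes1, Id3 rose by 0.67, and Id1, Id2 and Hes1 did not pass, at 0.22, 0.28 and -0.23.

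Fibroblast markers were present at both times, with exceptions. Of 14 fibroblast markers in the table, 8 were tested, 4 rose and 0 fell. Col1a2, Thy1, Fap and Tcf21 were listed at 0 in all 6 libraries, and Pdgfra and Dcn were under 1 FPKM in each. The summed level of all 14 was 8548 to 9991 FPKM at day 8 and 9626 to 11130 FPKM at day 16.

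Most markers in each list for other cell types were under 1 FPKM in all 6 libraries, but the sums of the skeletal muscle and epithelial markers were not low. The part of such cells in the results was not tested. A listed 0 can be a failed estimate, here and among the fibroblast markers. Of 15 macrophage markers, 7 were at 0 in all 6 libraries and 14 under 1 FPKM, and their sum was 0.967 to 1.40 FPKM at day 8 and 1.89 to 2.85 FPKM at day 16. Among those at 0 were C1qa, C1qb, Tyrobp and Mrc1. Of 11 endothelial markers, 6 were at 0, Cdh5, Kdr and Tie1 among them. Their sum was 3.75 to 5.78 FPKM at day 8 and 8.34 to 9.05 FPKM at day 16, and Egfl7 rose by 0.76. Of 10 adipocyte markers 5 were at 0, Pparg, Fabp4 and Lpl among them, with sums of 3.21 to 4.10 and 3.46 to 4.61 FPKM. Of 11 epithelial markers 9 were at 0, Epcam and Cdh1 among them, and the sum of 23.1 to 26.8 FPKM at day 8 and 62.2 to 75.8 FPKM at day 16 came almost wholly from Krt8, a keratin, which rose by 1.44 ± 0.13 on the log2 scale (limma, adjusted p = 3.45e-09). Of 15 neural and glial markers 6 were at 0, Rbfox3 and Sox10 among them, with sums of 11.1 to 13.0 and 18.1 to 23.1 FPKM, and Map2 rose by 0.67, a call lost when any one library other than day 16 replicate 1 was left out, and with a common sum. Of 21 skeletal muscle markers 7 were at 0, Myog and Pax7 among them, with sums of 75.5 to 84.3 and 77.0 to 91.7 FPKM, and Tnnt2 and Des rose by 1.24 and 0.78 while Tnnc1 fell by 0.59.

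The days between 8 and 16 show when these changes set in. For each gene that passed, the part of its log2 change already present at days 10, 12 and 14 was computed. This is a description, since days 8 and 16 chose the genes and set the scale. For those 3 days the median part was 18.7%, 50.6% and 74.1% over all genes that rose, and 10.3%, 54.7% and 79% over those that fell. Ribosomal proteins were early, with 51.8% at day 10 and 85.2% at day 12. Hydrolases of the lysosome reached 20.2% at day 10, 60.3% at day 12 and 91.1% at day 14. Cholesterol synthesis first went the other way, with -24.5% at day 10 and -3.3% at day 12, and stood at 47.1% by day 14. Fatty acid synthesis and glycolysis took a like course, with 47.2% and 54.7% at day 14. Mitotic and replication genes came last, with 7.9% and 18.8% at day 14. Single genes show these courses in FPKM. Cyp51 had means of 311 at day 8, 392 at day 10, 322 at day 12, 188 at day 14 and 91.9 at day 16. Rpl4 had means of 767, 1070, 1196, 1257 and 1361 on the same days. Rrm2 had means of 2.04, 1.34, 0.871, 3.17 and 13.1.

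**Figure D4:**
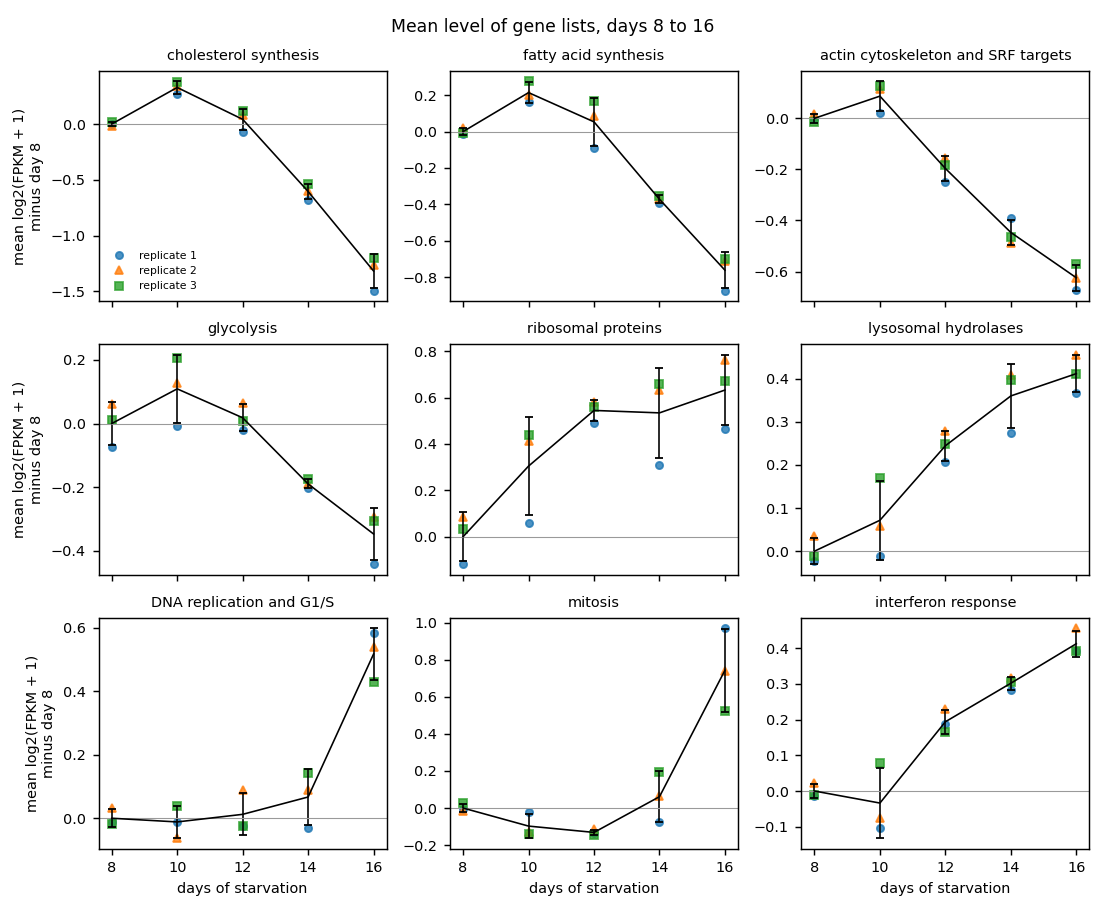
Mean log2(FPKM + 1) over the tested members of 9 gene lists, relative to the day 8 mean, against days of starvation. Points are single libraries by replicate number, lines join the means and bars are SDs of 3 libraries. Among the days shown, 8 to 16, cholesterol and fatty acid synthesis are highest at day 10, ribosomal proteins level off by day 12, and mitotic genes stay near the day 8 mean through day 14 and stand at 0.74 ± 0.22 above it at day 16, with replicate 1 highest.

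**Figure D5:**
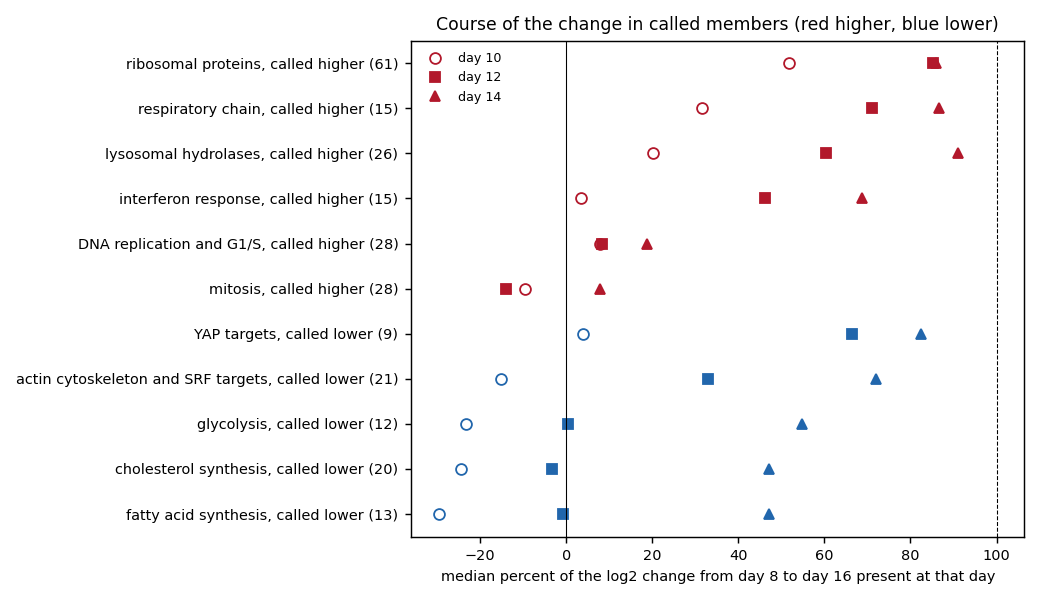
Median percent of the log2 change from day 8 to day 16 present at day 10 (open circles), day 12 (squares) and day 14 (triangles), for members that rose (red) or fell (blue), with their number in parentheses. The dashed line at 100 is day 16. Ribosomal proteins stand at 51.8% by day 10 and mitotic genes at 7.9% by day 14.

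The late change differed from the early one in many genes. The change from day 8 to day 16 was set against that from day 2 to day 8 in the same fit, and the difference of the 2 changes was tested gene by gene. The late span is longer than the early one, and the changes were not scaled to days. The difference was positive in 1380 genes (15.4%) and negative in 1247 (13.9%), or 803 and 2278 with libraries rescaled to a common sum. Both changes use the day 8 libraries, so an error in the day 8 level moves both, in opposite directions. From day 2 to day 8 alone, 1559 genes were higher (17.4%) and 1642 lower (18.4%).

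In several lists the late change ran against the early one. Mitotic genes had a median change of -0.88 early and 0.70 late, and the difference was positive in 37 of 44 and negative in 0. DNA replication genes had medians of -0.46 and 0.44, with 34 of 51 differences positive and 1 negative. Ribosomal proteins had medians of -0.49 and 0.67, with 60 of 70 positive and 0 negative. Glycolysis had medians of 0.83 and -0.605, with 12 of 17 differences negative and 1 positive. Genes of the hypoxia response had medians of 0.915 and -0.22, with 14 of 21 negative and 2 positive. The list of actin and SRF genes had medians of 0.36 and -0.70, with 17 of 26 negative and 3 positive. Collagens had medians of the same sign, -1.75 and -0.18, with 8 of 10 differences positive and 1 negative.

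Cholesterol synthesis genes fell in both phases. From day 2 to day 8, 16 of 22 were lower and 0 higher, and the median change was -0.51 early and -1.32 late, with 16 of 22 differences negative and 0 positive. Of the membrane proteins of the lysosome, 14 of 20 were higher and 2 lower in the early comparison, with a median of 0.50 from day 2 to day 8 and -0.003 from day 8 to day 16, and 10 of 20 differences were negative and 1 positive. The vacuolar ATPase likewise had medians of 0.60 and 0.14, with 8 of 18 negative and 0 positive. Of the hydrolases, 18 of 36 were higher and 6 lower early, with medians of 0.23 and 0.36 and with 10 of 36 differences positive and 6 negative.

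The 8 genes with the most positive differences (Fkbp1b, Aldh3a1, Tnnt2, Nrep, Plat, Igfbp4, Rrm2 and Mmp2) had all fallen early. A ranking by the difference favours genes with an early fall, so this direction was in part set by the choice. Tnnt2, a troponin of muscle, had means of 141, 6.31 and 16.5 FPKM at days 2, 8 and 16, changes of -4.28 and 1.24. Clu had means of 517, 125 and 460.4 FPKM on those days. Aldh3a1 and Mmp2 had fallen early, by 5.91 and 4.41, and did not pass in the late comparison, at -0.17 and 0.15. Their differences were 5.73 and 4.56. Among the most negative, Lce1m, Myh1, Maff, Cyp3a9, Rcan1, Il1rap and Tgfb3 had risen early and fell late, a course that the ranking likewise favours. Rcan1, an inhibitor of calcineurin that calcineurin induces, had means of 10.6, 59.9 and 21.5 FPKM. Tgfb3 had means of 327, 885 and 168 FPKM, so that its level at day 16 lay below that of day 2.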

How the data were processed

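RNA sequencing values were deposited by the authors as one table of FPKM for 30 libraries, 3 biological replicates in each of 10 groups, as labelled. TopHat2 2.1.1, Cufflinks, Cuffnorm 2.2.1 and the rn6 build are named in the submitters' processing notes. The annotation, the scaling of libraries and the treatment of shared reads are not given in the sources used here. The values do not fall on steps of whole reads, so the depth is unknown and no counting interval is given. A value of 0 can be a failed estimate, since Rps6 and Ctsc were listed at 0 in all libraries. From these values, log2(FPKM + 1) of genes with a mean of at least 1 FPKM over 30 libraries was fitted with limma 3.58.1 in R 4.3.3 (10 group means, mean-variance trend), with two-sided tests and Benjamini-Hochberg adjustment over 8940 genes at a threshold of 0.05. Contrasts were day 16 minus day 8, and that change minus the change from day 2 to day 8. Each p-value sets a change against the spread between replicates, estimated over the 10 groups of all 30 libraries with that trend. The spread was thus not taken from the day 8 and day 16 values alone. On simulated data with 200 of 8940 genes changed, the first contrast called 52% of genes shifted by 0.5 (log2) and 96% of those shifted by 1, with 3.9% of calls false, and the second called 10% and 66%, with 6.2% false. The simulated noise was independent for each gene and library, with no shift of whole libraries. Fewer genes were changed than were called in the data, so these shares need not hold for the real calls.

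The members and the 44 gene lists were chosen with earlier results of these data known. Named genes are the 15 largest rises and falls (mean of at least 5 FPKM, groups not overlapping), the 4 members of smallest p in each list, 23 fixed genes, and the 8 most positive and negative genes of the second contrast. Genes named at the ends of a range, among few calls, or for their role were chosen after their values were seen. Some genes that met the rule are not reported here by name. Alternatives covered the pseudocount, the filter, 4 scalings, the fit, the replicate block and leaving out libraries.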

Additional observations from a re-analysis of the deposited data

Results flagged for a closer look

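The change from day 8 to day 16 differed from the change from day 2 to day 8, by limma's test of the difference of the 2 changes at an adjusted p under 0.05, with a positive difference in 1380 genes and a negative one in 1247. The day 8 libraries enter both changes with opposite sign, and the later span is the longer one. The 8 most positive differences on the log2(FPKM + 1) scale were 5.97 in Fkbp1b, 5.73 in Aldh3a1, 5.52 in Tnnt2, 4.83 in Nrep, 4.76 in Plat, 4.68 in Igfbp4, 4.65 in Rrm2 and 4.56 in Mmp2. Among the 8 most negative were -7.92 in Lce1m, -4.64 in Myh1, -4.44 in Maff, -4.18 in Il1rap, -3.98 in Cyp3a9, -3.83 in Rcan1 and -3.82 in Tgfb3. In Aldh3a1 and Mmp2 the later change itself did not pass, at -0.17 and 0.15.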

How the results depend on the processing

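With libraries rescaled to a common sum, 731 genes rose and 2458 fell, and the differences from the earlier change were positive in 803 and negative in 2278. With short RNA genes left out before rescaling, 812 rose and 2447 fell, with 898 positive and 2198 negative. In these settings 2020 and 2103 of the 2703 calls were shared. In the other settings run, the counts stayed within 1.5 times those reported. Leaving out 1 library at a time gave 1021 to 1312 rises (lowest without day 16 replicate 2), 947 to 1150 falls (lowest without day 8 replicate 3), 1051 to 1336 positive and 867 to 1249 negative differences. With replicate number as a replicate block, 1736 rose and 1734 fell, with 1634 positive and 1622 negative differences, and all 2703 calls were shared. Of genes named as not passing, Elovl5, Acsl3, Yap1, Ccnd1 and Rpl37a passed with the block (adjusted p = 0.00859, 0.0158, 0.0221, 0.0387 and 9.01e-06), and in the respiratory chain 24 rose, in the proteasome 8. Deviations of same-numbered day 8 and day 16 libraries correlated at 0.234, 0.049 and 0.143, and replicate 2 of day 8 matched replicate 3 best, so the numbers were not taken as pairs. Replicate 1 did have the most genes above 0 in every group. What libraries of the same number share is not given in the labels, and was not tested.

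Of the genes named, those whose sign turned had not passed. Rescaling to a common sum gave -0.024 for Ccnd1, -0.143 for Col1a1, -0.143 for Glb1 and -0.059 for Lamp1, and with short RNA left out -0.007, -0.127, -0.126 and -0.043. Upper quartile scaling gave 0.015 for Lamp2. Quantile normalization gave -0.35 for Col1a1, -0.13 for Lamp1 and -0.005 for Mmp2. Replicates 2 and 3 alone gave -0.083 for Col1a1, 0.026 for Ggps1, 0.086 for Lamp2, 0.003 for Lbr and -0.031 for Mmp2. The slope over days 8 to 16 gave -0.029 for Col1a1 and 0.011 for Lamp2. Leaving out 1 library at a time gave -0.268 to 0.005 for Aldh3a1, -0.045 to 0.116 for Col1a1, -0.015 to 0.057 for Glb1, -0.044 to 0.082 for Lamp2, -0.164 to 0.015 for Lbr and -0.012 to 0.322 for Mmp2. The unknown depth limits what can be said of genes near 0.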
